A study of Mus musculus with 59 samples.

Results

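The ERVL and ERVL-MaLR subfamilies of endogenous retroviruses were followed in the repeat transcripts of mouse bone marrow progenitors. Members were all rows that the deposited repeat tables annotate with either family name, and no expression value entered the choice. The tables of raw counts held 221 of them, 113 ERVL and 108 ERVL-MaLR, among 887 to 890 repeat subfamilies. The untimed tables held 212 of 1114 subfamilies in KLS cells and 213 of 1113 in GMPs, and 212 members stood in every table.

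KLS cells are c-Kit+ Lin- Sca-1+ stem and multipotent progenitor cells, and GMPs are granulocyte-monocyte progenitors. All animals, controls included, were C57BL/6 with 1 Cre allele (Cre +/-). The timed libraries came from Mx1Cre mice, whose interferon-inducible Cre recombines floxed alleles after pI:pC injection in blood cells and also in other interferon-responsive tissues. At 3 weeks post induction (w.p.i.) the groups were WT (Daxx +/+; 3 KLS and 2 GMP libraries), Daxx-KO (Daxx F/F; 3 KLS and 2 GMP) and DKO (Daxx F/F Pu.1 F/F; 2 KLS and 2 GMP). The GMP columns carry the codes of animals that also gave KLS libraries. A separate Pu.1 line gave 2 WT and 2 Pu.1-KO (Pu.1 F/F) libraries of each cell type at 3 w.p.i., and 2 WT libraries of each cell type were used at 24 w.p.i. A further 2 libraries per genotype and cell type, labelled Daxx +/+ or Daxx F/F, carried neither a time point nor a mouse line, and they are called untimed. The labels give no age for these animals. The study's methods describe the libraries as biological replicates of cells sorted from bone marrow. They also describe donor cells sorted from transplanted mice, and the labels do not say whether the untimed libraries are these.

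ERVL elements are retrovirus-derived sequences in which an internal region (named with the ending -int) is flanked by long terminal repeats (LTRs) that act as promoters. The mouse copy MERVL-int and its LTR MT2_Mm are known for their transcription in the early cleavage embryo. The MaLR elements, whose MT and ORR1 groups are restricted to rodents and whose MLT1 group is older and shared by mammals, have LTRs related to those of ERVL but do not encode retroviral proteins. Daxx deposits the histone variant H3.3 at repeats together with Atrx, and Pu.1 is a transcription factor of myeloid and B-lineage cells. By name, the 221 members comprised 3 MERVL elements, 5 other MT2 LTRs, 10 MLT2, 95 other ERVL, 58 MLT1, 19 MT, 29 ORR1 and 2 other MaLR subfamilies, and 72 names were internal regions.

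Depth ranged from 1263010 to 8616399 reads in repeats in the untimed libraries, from 1482490 to 4059683 at 3 w.p.i., from 2391102 to 12894834 in the Pu.1 line and from 3417990 to 5591130 at 24 w.p.i. Each of 20 replicate pairs differed by more than sampling noise (chi-square per degree of freedom 12.1 to 443). In the 3 w.p.i. gene tables, normalised Daxx counts were 422.6 to 505.2 in WT KLS cells, 72.19 to 102.3 in Daxx-KO and 78.07 and 93.9 in DKO libraries. Daxx was 622.2 to 687.7 in WT GMPs and 55.12 to 83.01 in Daxx-KO and DKO GMPs. Spi1, which encodes Pu.1, was 3330 and 2993 in the libraries labelled DKO against 1669 to 2320 in WT KLS cells, while DKO GMPs (2989 and 3846) overlapped WT GMPs (3348 to 4604). In the Pu.1 line Spi1 overlapped in KLS cells (1307 and 2920 in Pu.1-KO, 2080 and 2764 in WT) and was lower in Pu.1-KO GMPs (2589 and 2707) than in WT GMPs (3395 and 3934). The deleted exons of the Pu.1 F allele are not given in the sources used here, so Spi1 does not check those labels.

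ERVL and MaLR elements together took about the same share of the repeat reads in each genotype of KLS cells at 3 w.p.i. This share was 14.17% ± 0.287 (SD, n = 3) in WT, 13.7% ± 0.276 (n = 3) in Daxx-KO and 14.26% ± 0.474 (n = 2) in DKO KLS cells. In GMPs it was 13.3% ± 0.714 in WT, 12.09% ± 0.382 in Daxx-KO and 13.2% ± 1.09 in DKO libraries (n = 2 each). The Daxx-KO range in GMPs (11.82% to 12.36%) lay below the WT range (12.8% to 13.81%), while DKO (12.43% to 13.97%) overlapped WT. MaLR elements held most of these reads, with 10.87% to 11.82% of repeat reads in these KLS libraries, and ERVL elements held 2.545% to 2.766%. By group, ORR1 took 4.932% ± 0.19 in WT and 4.702% ± 0.112 in Daxx-KO KLS cells, MT took 4.922% ± 0.102 and 4.777% ± 0.0752, and MERVL took 0.4323% ± 0.0143 and 0.4154% ± 0.0119 (SD, n = 3 each). The ranges of WT and Daxx-KO overlapped for all 3 groups in KLS cells. DKO KLS cells lay above Daxx-KO for ORR1 (4.852% to 4.939% against 4.588% to 4.812%). They also did for MT (4.878% to 5.14% against 4.692% to 4.834%), while MERVL overlapped. In GMPs the MERVL share was 0.3986% and 0.4011% in WT and 0.3603% and 0.3607% in Daxx-KO libraries, which did not overlap, and it was 0.3941% and 0.4156% in DKO libraries. All other groups by name were also lower in Daxx-KO than in WT GMPs without overlap. MT, for example, took 4.09% to 4.356% against 4.544% to 4.844%, and ORR1 took 4.271% to 4.354% against 4.389% to 4.806%.

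**Figure D1:**
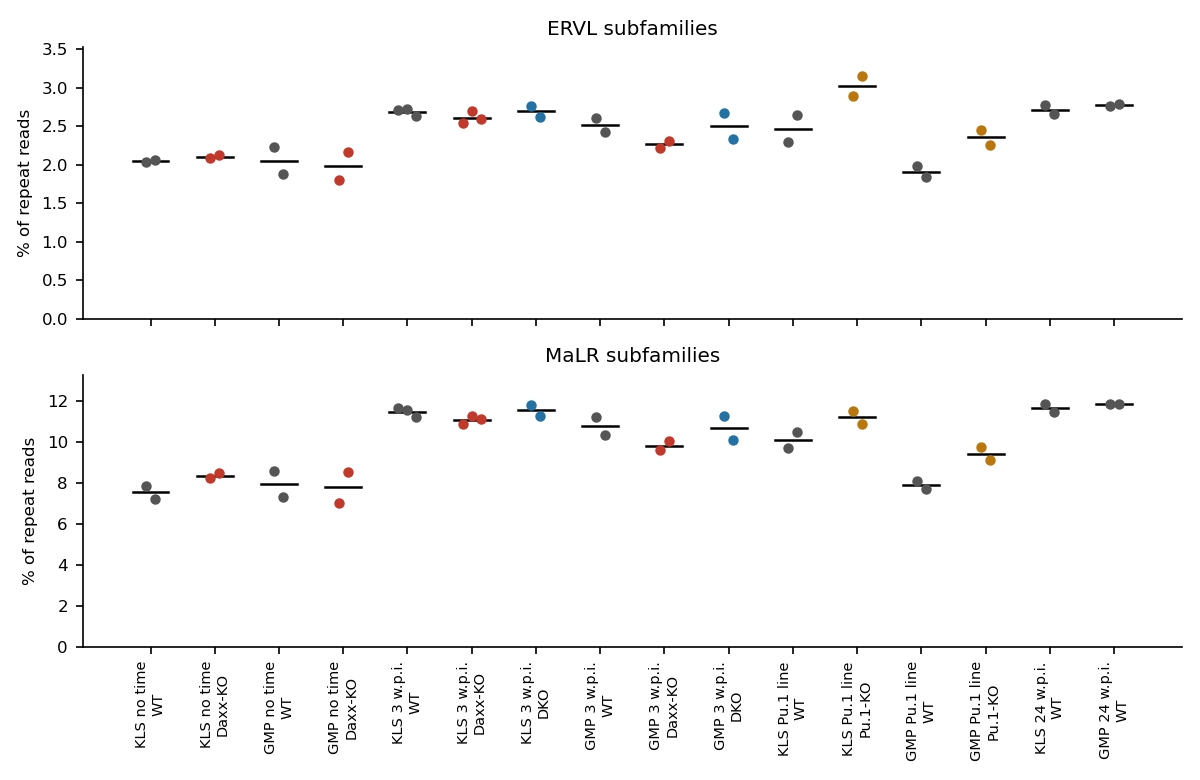
Share of repeat reads (%, vertical axis) assigned to ERVL (top) and MaLR (bottom) subfamilies in each library, with a point per library and a line at the group mean. Pu.1-KO libraries lie above WT libraries of the Pu.1 line in both cell types, and the groups at 3 w.p.i. outside that line are closer together.

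In the Pu.1 line, Pu.1-KO libraries had the larger shares. The combined share was 11.99% and 13.14% in WT KLS cells and 14.02% and 14.43% in Pu.1-KO KLS cells, and it was 9.559% and 10.07% in WT GMPs and 11.39% and 12.21% in Pu.1-KO GMPs. Groups did not overlap in either cell type, and the shares were not tested. The older groups were also apart, with MLT1 at 1.374% ± 0.127 in WT and 1.728% ± 0.0969 in Pu.1-KO KLS cells, and other ERVL at 1.341% ± 0.171 and 1.73% ± 0.214 (SD, n = 2 each). So were MLT2, other MT2 and the rodent ORR1 group (4.225% to 4.653% in WT and 4.829% to 5.094% in Pu.1-KO KLS cells). MT overlapped (4.129% to 4.316% and 4.189% to 4.728%), and other MaLR was lower in Pu.1-KO (0.05457% to 0.06058% against 0.06181% to 0.06323%). Mean MERVL shares were 0.3066% ± 0.0161 in WT and 0.3443% ± 0.0355 in Pu.1-KO KLS cells (SD, n = 2 each). The ranges did not overlap (0.2952% to 0.318% and 0.3192% to 0.3694%). Reads also spread over more genes in those libraries. Of 1405 olfactory receptor genes, which blood cells are not known to use, 646 and 906 had a read in WT and 1109 and 1205 in Pu.1-KO KLS cells of this line, and 551 and 731 against 797 and 948 in its GMPs, compared with 50 to 238 in the other timed libraries set beside repeat tables. The part of these reads in the repeat shares was not tested. In the untimed tables, KLS libraries labelled Daxx-KO had 10.32% and 10.61% against 9.294% and 9.896% in those labelled WT, and the GMP groups overlapped.

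In every table MTD, a rodent MaLR LTR, had the most reads of all members, with 8.04% to 9.42% of their total. Levels are given as CPM, reads of an element scaled to the repeat reads of its library. In 111 members with a mean of 100 CPM or more, the SD of log2 values within groups had a median of 0.116 over the 26 timed libraries. ORR1D-int, the internal region of the ORR1D MaLR, stood at the top of this order with an SD of 0.81. It ranged from 106.1 to 3192 CPM, and replicates of the same group differed by up to 6.74-fold.

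MERVL-int and its LTR did not pass the test between genotypes at 3 w.p.i. in either cell type with libraries scaled to their repeat reads and by TMM factors. MERVL-int had 1938, 2000 and 2079 CPM in WT KLS cells and 1945, 1973 and 2025 CPM in Daxx-KO KLS cells. MT2_Mm had 807.8, 856.9 and 867.9 CPM in WT and 804.7, 809 and 810.4 CPM in Daxx-KO cells. The groups overlapped for both elements. The log2 fold change of Daxx-KO over WT was -0.02 for MERVL-int (95% interval -0.14 to 0.10) and -0.06 for MT2_Mm (-0.20 to 0.07). In the table with DKO libraries, MERVL-int had 2005 and 2111 CPM in DKO and 1963, 2029 and 2098 CPM in the same WT libraries, scaled anew, a log2 fold change of 0.02 (-0.11 to 0.15). MTA_Mm, an LTR of the MT group, had 4390, 4775 and 4833 CPM in WT and 4487, 4631 and 4720 CPM in Daxx-KO KLS cells, again overlapping. In GMPs, MERVL-int was 1841 and 1935 CPM in WT, 1841 and 2011 CPM in Daxx-KO and 1804 and 1957 CPM in DKO libraries, so each group overlapped the others. The overlap of WT and Daxx-KO GMPs holds after TMM scaling, whereas their unscaled MERVL shares, given above, did not overlap.

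**Figure D2:**
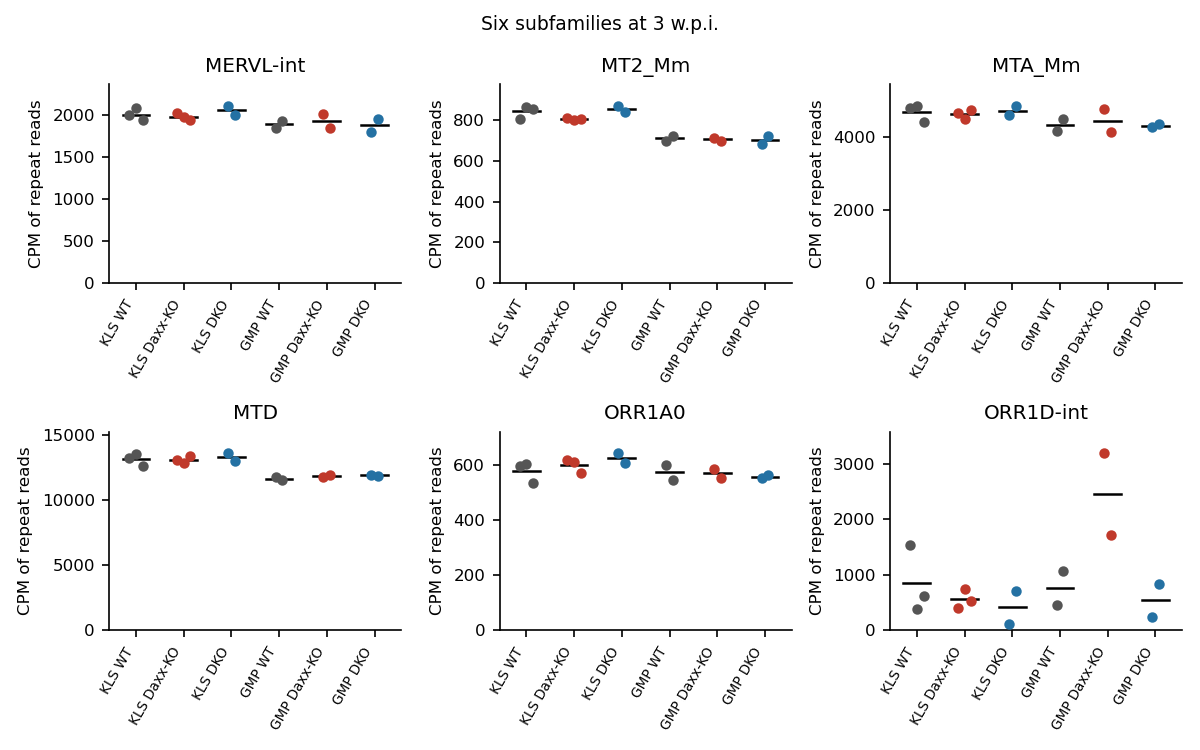
Levels at 3 w.p.i. (CPM of repeat reads, linear axis from 0) of 6 subfamilies in KLS cells and GMPs of each genotype, with a point per library and a line at the mean. MERVL-int, MT2_Mm, MTA_Mm, MTD and ORR1A0 hold narrow ranges across genotypes, whereas ORR1D-int spans 106.1 to 3192 CPM.

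Across all members, no subfamily was called in any of the 6 comparisons of genotypes at 3 w.p.i. with libraries scaled to their repeat reads and by TMM factors. A subfamily was called at an adjusted p under 0.05 in edgeR's quasi-likelihood test, adjusted over all repeat subfamilies tested. For Daxx-KO over WT KLS cells, 0 of 203 members were called while 0.613% of all subfamilies were, and 8 members had an unadjusted p under 0.05 (7.98% of all subfamilies) and DESeq2 called 0. For DKO over WT, 0 of 205 members were called (0.605% of all), 18 had an unadjusted p under 0.05 (14.5% of all) and DESeq2 called 3. With library sizes from the gene tables the median of all subfamilies for DKO over WT stood at -0.259 and 40 of 204 members were called, all lower, against 25.7% of all subfamilies, and MERVL-int (-0.2447), MT2A, MT2B, MTD, MTEa and ORR1D1 changed sign with it. For DKO over Daxx-KO, 0 of 209 were called (0.839% of all), 18 had an unadjusted p under 0.05 (13.5% of all) and DESeq2 called 1. In GMPs, 0 of 199 members and 0% of all subfamilies were called in each of the 3 comparisons by edgeR, DESeq2 called 0, and 4, 3 and 9 members had an unadjusted p under 0.05 for Daxx-KO over WT, DKO over WT and DKO over Daxx-KO (3.76%, 3.26% and 5.26% of all). The median log2 fold change of the members lay between -0.0221 and 0.0302 over the 6 comparisons, and that of all subfamilies between -0.0091 and 0.0101.

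The 23 rodent elements of a set list, from MERVL and MT2 to MT and ORR1, all lay within 0.25 of 0 on the log2 scale in each of these 6 comparisons. The 95% interval of such an element reached a median of 0.126 to 0.132 either side of its estimate in KLS cells and 0.214 in GMPs. Over all members the corresponding half-widths were 0.297 to 0.341 in KLS cells and 0.482 to 0.487 in GMPs, so smaller changes of most members were not detectable. The intervals are not adjusted for the number of subfamilies tested, so changes beyond these half-widths could also go uncalled. The lowest adjusted p among members belonged to MLT1H-int, an older MaLR internal region singled out after its values were seen. It had 71.59 and 73.19 CPM in the KLS libraries labelled DKO and 34.37, 39.6 and 44.77 CPM in WT. The DKO libraries lay above WT, as in 15.8% of all subfamilies, with a log2 fold change of 0.87 (SE 0.187, adjusted p = 0.105). Against Daxx-KO KLS cells the log2 fold change was 0.83 (adjusted p = 0.0858), and in GMPs it was 0.61 over WT (adjusted p = 0.99).

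ORR1D-int shows how replicate spread bears on these tests, and it too was chosen after its values were seen. It had 1713 and 3192 CPM in Daxx-KO GMPs, 452.9 and 1066 CPM in WT and 244.9 and 829.8 CPM in DKO GMPs. Both Daxx-KO libraries were above the other 4, and the log2 fold change over WT was 1.70 (SE 0.653, adjusted p = 0.978). In KLS cells the estimate had the other sign, at -0.59 (SE 0.443, adjusted p = 0.809), with overlapping groups.

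Markers of other cells differed between these KLS groups. The 7 B-lineage markers summed to 3418 to 110700 normalised counts in WT, 55260 to 139200 in Daxx-KO and 148300 to 189500 in DKO libraries, with all 7 detected in each. The 6 late neutrophil markers summed to 495.2 to 26360 in WT and 132900 to 164300 in DKO libraries, and the 8 GMP markers to 6900 to 46350 and 109000 to 112400. Among the WT libraries 1 alone, put in this group by its column ending, had the 110700 and the others at most 7618. Without it 0 members were called for Daxx-KO and for DKO over WT by edgeR, with 8 and 15 at an unadjusted p under 0.05. In the gene columns of the 6 GMP animals with repeat counts, the late neutrophil markers summed to 37430 and 38130 in Daxx-KO, below the 52610 and 280900 of WT and the 106300 and 155300 of DKO libraries. The B-lineage markers were lowest in WT (1658 and 2008), with 2809 and 3555 in Daxx-KO and 4598 and 4623 in DKO libraries. The 7 erythroid markers were lower in Daxx-KO (65.43 and 94.88) than in WT (118.3 and 813.4), as were the 5 megakaryocyte markers (519.5 and 623.7 against 1116 and 1191). The 4 T-lineage markers were higher in DKO (24.66 and 78.12) than in WT libraries (0.8826 and 4.155), the 8 KLS markers were lower in DKO (5641 and 5911) than in WT (8678 and 12080), and the 8 GMP markers overlapped. Fewer cells of a type and less RNA per cell cannot be told apart in bulk libraries, and the part of these markers in the values of the repeats was not tested.

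**Figure D3:**
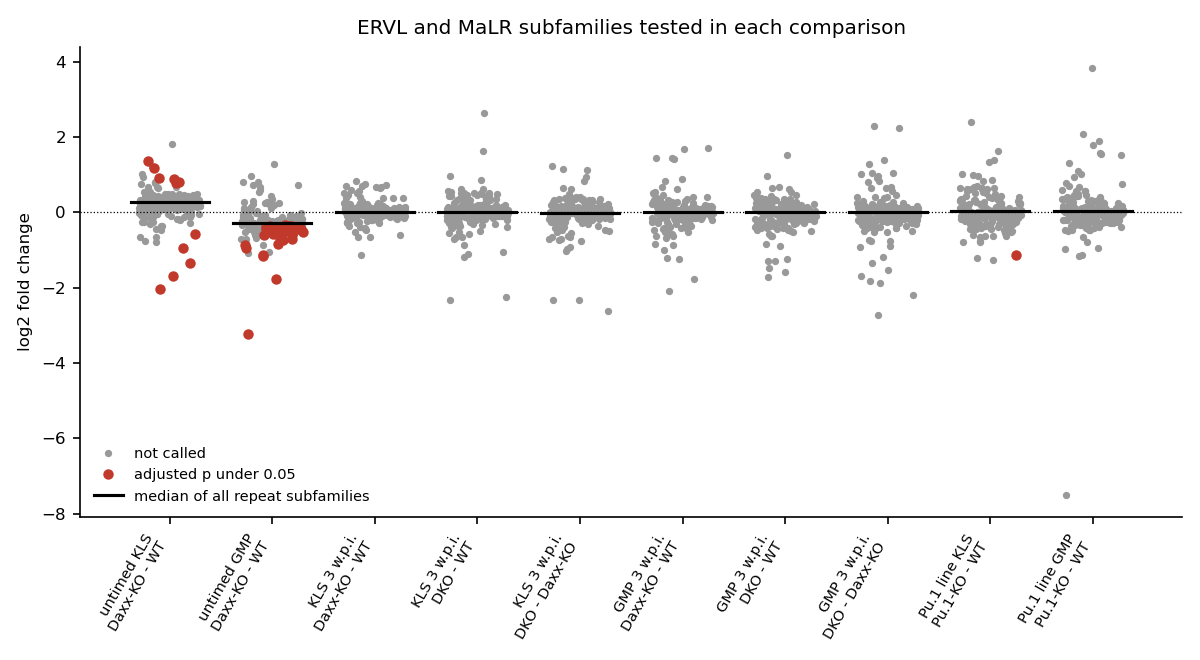
Log2 fold change (vertical axis) of each ERVL and MaLR subfamily tested in 10 genotype comparisons, with subfamilies of an adjusted p under 0.05 in red and a line at the median of all repeat subfamilies. Called members stand in both untimed comparisons and 1 in Pu.1 line KLS cells, and the untimed medians are offset from 0 (0.27 in KLS cells and -0.283 in GMPs).

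In KLS cells of the Pu.1 line, 1 of 212 members was called, the internal region ORR1D-int. It had 949.4 and 648 CPM in WT and 346.9 and 382.4 CPM in Pu.1-KO libraries. The groups did not overlap, as in 51.1% of all subfamilies. The log2 fold change was -1.13 (SE 0.18, edgeR adjusted p = 0.0358), and 0.236% of all subfamilies were called. At an unadjusted p under 0.05 stood 21 members (19.2% of all subfamilies). The call was lost without WT replicate a (adjusted p = 0.507) and when the KLS groups were fitted on their own (adjusted p = 0.451). Without Pu.1-KO replicate a more members were called, in a fit that left a lone library in that group. MERVL-int had 1267 and 1285 CPM in WT and 990.2 and 1314 CPM in Pu.1-KO KLS cells, overlapping, with a log2 fold change of -0.15 (adjusted p = 0.597), and MT2_Mm had one of -0.15 (adjusted p = 0.614). The negative sign holds after TMM scaling. Without it, the MERVL share was higher in Pu.1-KO (0.3192% and 0.3694%) than in WT KLS cells (0.2952% and 0.318%). In GMPs of this line ORR1D-int changed by -0.27 (adjusted p = 0.544), and edgeR called 0 of 212 members and 0% of all subfamilies, with 14 members at an unadjusted p under 0.05 (9.45% of all) and 0 by DESeq2. The difference between the effects in KLS cells and GMPs was called for 0 of 212 members (0% of all subfamilies), with 3 at an unadjusted p under 0.05 (2.24% of all) and 0 by DESeq2.

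Repeat reads per 100 gene reads were 25.8 and 32.9 in WT KLS cells and 36.8 and 74.6 in Pu.1-KO KLS cells of this line. With library sizes from the gene tables in place of the repeat tables, the median of all subfamilies stood at 1.27 on the log2 scale, 38 members were called higher, and ORR1D-int turned to 0.1986 (adjusted p = 0.735), still below that median. The 8 KLS markers, all detected, summed to 59730 and 72030 in WT and to 14890 and 36260 in Pu.1-KO libraries, and the 6 late neutrophil markers to 22200 and 40220 against 57270 and 117300. In GMPs of this line the late neutrophil markers summed to 27630 and 34410 in WT and 152300 and 155400 in Pu.1-KO libraries, the 8 GMP markers to 266500 and 290400 against 106800 and 189800, and the 7 B-lineage markers to 2583 and 2848 against 4502 and 6694. Their part in the repeat values was not tested.

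The untimed tables gave more calls, and the genotype names of their columns need care. When the repeat and gene columns of the same name were set together, repeat reads per gene read were 0.614 and 2.19 in KLS columns labelled WT and 0.225 and 0.0634 in those labelled Daxx-KO. Set against the gene column of the other genotype with the same replicate number, the 4 ratios were 0.364 to 0.38. In GMPs the ratios were 0.136 to 1.1 with the same label and 0.332 to 0.449 with the other. Daxx counts in the gene table were 118.7 and 137.8 in KLS columns labelled WT and 29.7 and 33.91 in those labelled Daxx-KO, but the repeat tables hold no such check. Directions below follow the repeat column labels, and every sign turns if those names are exchanged.

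In untimed KLS cells, 6 of 195 members were called higher and 5 lower in the libraries labelled Daxx-KO (limma on log2(value + 1)). Of all subfamilies 11.8% were called, 7.85% higher and 3.97% lower, and 36 members had an unadjusted p under 0.05 against 29.9% of all. The median log2 fold change was 0.224 over the members and 0.27 over all subfamilies. After rescaling by TMM factors, which moved the median of all subfamilies to near 0, 5 members were called, all lower, and 4 of those were among the 5 lower calls. None of the 6 higher calls remained after that rescaling, and DESeq2 on the recovered reads called 9 members. In simulated tables of this size, 11.5% of calls were false.

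ORR1A1-int, the internal region of a rodent MaLR, gave the smallest adjusted p. It had 3019 and 3066 normalised counts in the libraries labelled WT and 1302 and 1104 in those labelled Daxx-KO. The groups did not overlap, as in 65.3% of all subfamilies. The log2 fold change was -1.34 (SE 0.166, adjusted p = 5.71e-14), and relative to the median of all subfamilies, after rescaling, it was -1.62 (adjusted p = 0.00112). It stayed called in the 11 alternatives run, leaving out each library included. Its LTR, ORR1A1, had 2082 and 2023 against 1646 and 1748 normalised counts. The LTR was not called with the deposited values (log2 fold change -0.27, limma adjusted p = 0.239) but was after rescaling (-0.55, adjusted p = 0.021). The ratio of LTR to internal reads was 0.69 and 0.66 in the libraries labelled WT and 1.26 and 1.58 in those labelled Daxx-KO. That ratio was 1.24 to 1.81 in the 26 timed libraries and 1.31 to 1.45 in untimed GMPs, so the low ratios of ORR1A1 stood under 1 label in KLS cells. At 3 w.p.i. ORR1A1-int had 717.5, 720.3 and 789 CPM in WT and 660.4, 671.4 and 677.9 CPM in Daxx-KO KLS cells. These groups did not overlap, as in 14.1% of all subfamilies, and the log2 fold change was -0.15 (edgeR adjusted p = 0.614).

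MLT1G3-int, an internal region of the older MLT1 group, had 142.3 and 139.5 normalised counts in the libraries labelled WT and 52.07 and 35.45 in those labelled Daxx-KO. Its log2 fold change was -1.69 (SE 0.314, adjusted p = 3.32e-06), or -1.96 after rescaling (adjusted p = 0.0129). MER68C, an ERVL LTR of low level, had 48.14 and 31.33 against 7.182 and 10.63, a log2 fold change of -2.03 (adjusted p = 0.00761), and its adjusted p was 0.0499 after rescaling. The groups did not overlap for either element, which the list of largest falls required.

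MT2_Mm, the promoter LTR of MERVL, was called lower in untimed KLS cells, while its internal region was not called, and the difference between them was not tested. MT2_Mm had 6311 and 10280 normalised counts in the libraries labelled WT and 4049 and 4238 in those labelled Daxx-KO, with a log2 fold change of -0.96 (adjusted p = 1.11e-07). That call was lost after rescaling (-1.23, adjusted p = 0.0866), by edgeR and DESeq2 on the recovered reads (adjusted p = 0.0887 and 0.0654) and without either library labelled Daxx-KO. MERVL-int had 4065 and 3871 against 4158 and 4236, a log2 fold change of 0.08 (adjusted p = 0.72), which became -0.19 after rescaling (adjusted p = 0.229). The ratio of MT2_Mm to MERVL-int reads was 0.974 to 2.66 in untimed KLS cells and 1.58 to 1.97 in untimed GMPs, above the 0.355 to 0.547 of the 26 timed libraries. The labels and the methods differ on the kit used for the timed libraries, and its part in this ratio was not tested.

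ORR1D-int had 1937 and 1518 normalised counts in the libraries labelled WT and 1049 and 1262 in those labelled Daxx-KO. It was called lower (log2 fold change -0.58, limma adjusted p = 0.0118), but leaving out any 1 of the 4 libraries ended the call. With all libraries it stayed called after rescaling (-0.85, adjusted p = 0.00832) and by edgeR on the recovered reads (-0.835, adjusted p = 0.0121). The 5 largest rises were LTR33C (log2 fold change 1.35), LTR82B (1.16), MER54B (0.90), the MLT1 LTR MLT1H1 (0.88) and MLT2B5 (0.82). LTR33C, with the largest value, had 54.56 and 37.31 normalised counts in the libraries labelled WT and 95.16 and 143.6 in those labelled Daxx-KO, and after rescaling its log2 fold change was 1.08 (adjusted p = 0.119).

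**Figure D4:**
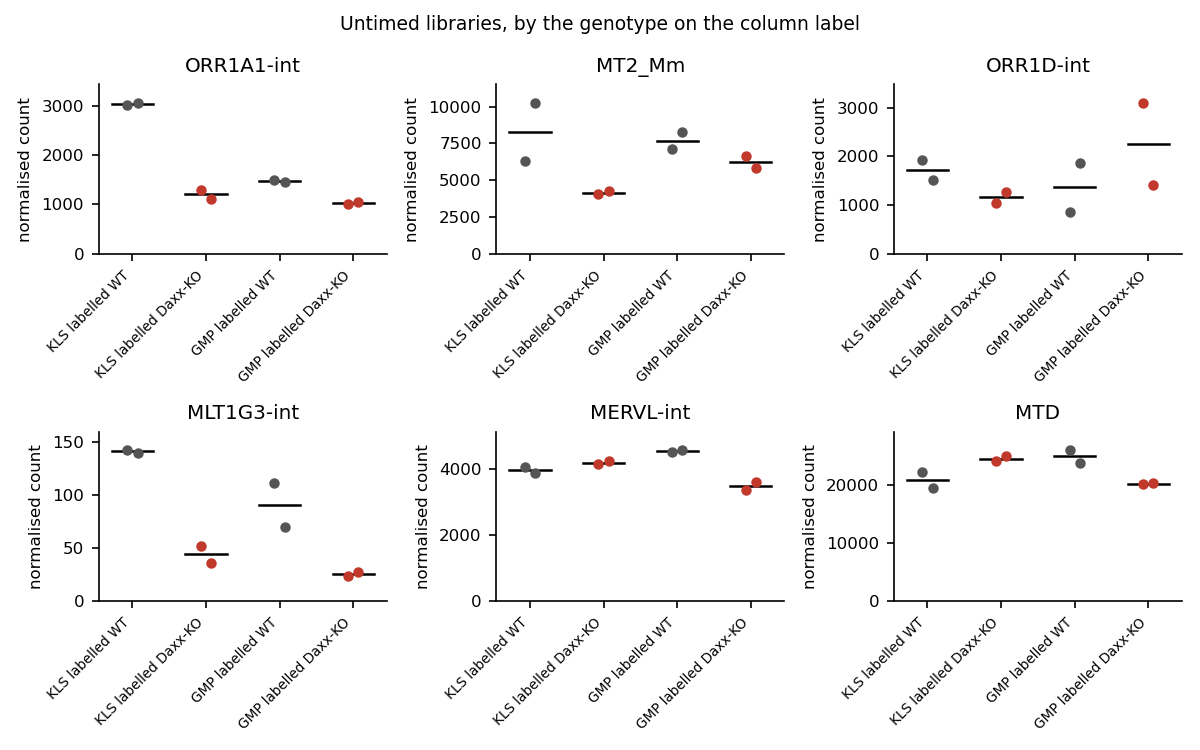
Normalised counts (linear axis from 0) of 6 subfamilies in the untimed libraries, grouped by the genotype on the column label, with a point per library and a line at the mean. ORR1A1-int and MLT1G3-int are lower under the label Daxx-KO in both cell types, and MT2_Mm is highest in 1 KLS library labelled WT (10280).

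In untimed GMPs, 34 of 194 members were called lower in the libraries labelled Daxx-KO and 0 higher by limma. Of all subfamilies 14.3% were called, 14% lower and 0.302% higher, and 83 members had an unadjusted p under 0.05 (42.8% of members, 32.8% of all). The median log2 fold change was -0.307 over the members and -0.283 over all. The called members included 2 of 3 MERVL elements, 6 of 19 MT, 6 of 28 ORR1 and 8 of 44 MLT1 subfamilies. After rescaling by TMM factors 1 member was called, edgeR on the recovered reads called 1 and DESeq2 called 2. MERVL-int, for example, had a log2 fold change of -0.38 (adjusted p = 0.0354), which became -0.09 after rescaling.

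The member that stayed called was LTR16D2, an ERVL LTR. It had 46.22 and 66.41 normalised counts in the libraries labelled WT and 3.884 and 6.309 in those labelled Daxx-KO, from 22, 167, 3 and 7 reads. The groups did not overlap, as in 65.7% of all subfamilies. The log2 fold change was -3.24 (SE 0.488, limma adjusted p = 0.000162), or -2.98 after rescaling (adjusted p = 0.0453). It was called in all 12 alternatives run. Outside the Pu.1 line, LTR16D2 had at most 5 reads in any GMP library at 3 w.p.i., too few for a test.

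MLT1G3-int was also lower in untimed GMPs, with 111.4 and 69.99 normalised counts in the libraries labelled WT and 23.31 and 27.04 in those labelled Daxx-KO. Its log2 fold change was -1.77 (adjusted p = 0.00221), and the call was lost after rescaling (adjusted p = 0.109). MER70A (-1.17), MER70B (-1.15) and LTR16A2 (-0.95), all ERVL LTRs, completed the 5 largest falls. That list took only members without overlap between labels, and 65.7% of all subfamilies had none.

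Cell type markers differed between the untimed groups as labelled in the gene tables. The 8 KLS markers summed to 38550 and 40080 normalised counts in KLS libraries labelled WT and to 8988 and 9539 in those labelled Daxx-KO. The 7 B-lineage markers, of which 6 or 7 were detected, summed to 11670 and 17020 against 696.8 and 1005, and the 8 GMP markers to 1752 and 2617 against 13710 and 17070. In GMPs the 6 late neutrophil markers summed to 4552 and 6191 against 34040 and 49080. Their part in the repeat values was not tested.

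Between WT GMPs and WT KLS cells, the differences were few and changed with the set of animals. At 24 w.p.i. 2 of 204 members were called, both higher in GMPs and both of the MLT1 group, against 1.95% of all subfamilies called and 0.608% called higher. An unadjusted p under 0.05 was found for 14 members (11.3% of all). MLT1H1-int had 10.96 and 24.94 CPM in KLS cells and 73.85 and 64.88 CPM in GMPs, with a log2 fold change of 1.93 (SE 0.444, edgeR adjusted p = 0.0151). MLT1M, an LTR, had 58.56 and 66.91 CPM in KLS cells and 157.1 and 121.6 CPM in GMPs, with a log2 fold change of 1.15 (SE 0.264, adjusted p = 0.0151). The groups did not overlap for either element, as in 41.2% of all subfamilies. Without KLS replicate a neither was called (adjusted p = 0.379 and 0.31), and without KLS replicate b MLT1M was not (adjusted p = 0.0973). The main test did not pair cells of the same animal, and with the animal as a replicate block both were called.

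At 3 w.p.i. MLT1M had 55.59, 60.8 and 61.82 CPM in WT KLS cells and 88.76 and 134.1 CPM in WT GMPs. All GMP libraries were above all KLS libraries, as in 16.7% of all subfamilies, with a log2 fold change of 1.06 (SE 0.196, adjusted p = 0.0547). MLT1H1-int gave 0.08 (adjusted p = 0.979) in the same libraries. By edgeR 0 of 209 members were called there (0.12% of all subfamilies), with 18 at an unadjusted p under 0.05 (14.6% of all) and 3 called by DESeq2. In the Pu.1 line MLT1M had 51.36 and 61.26 CPM in KLS cells and 75.85 and 73.37 CPM in GMPs (log2 fold change 0.40), and MLT1H1-int had 16.84 and 15.83 against 40.11 and 44.9 CPM (1.38, adjusted p = 0.274). There, 0 of 212 members were called by edgeR (0.472% of all subfamilies), with 8 at an unadjusted p under 0.05 (4.84% of all) and 2 called by DESeq2.

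After TMM scaling, MERVL-int lay at like levels in both WT cell types. At 24 w.p.i. it had 2004 and 2040 CPM in KLS cells and 1902 and 2013 CPM in GMPs, and in the Pu.1 line 1267 and 1285 against 1213 and 1282 CPM, with overlap in each set. The log2 fold change of GMPs over KLS cells was -0.05 at 24 w.p.i. (95% interval -0.25 to 0.16), 0.05 at 3 w.p.i. (-0.09 to 0.18) and -0.03 in the Pu.1 line (-0.37 to 0.31). Without that scaling, the MERVL share was higher in WT KLS cells than in WT GMPs at 3 w.p.i. (0.422% to 0.4487% against 0.3986% to 0.4011%). It was also higher in the Pu.1 line (0.2952% to 0.318% against 0.2338% to 0.236%), and the groups overlapped at 24 w.p.i.

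**Figure D5:**
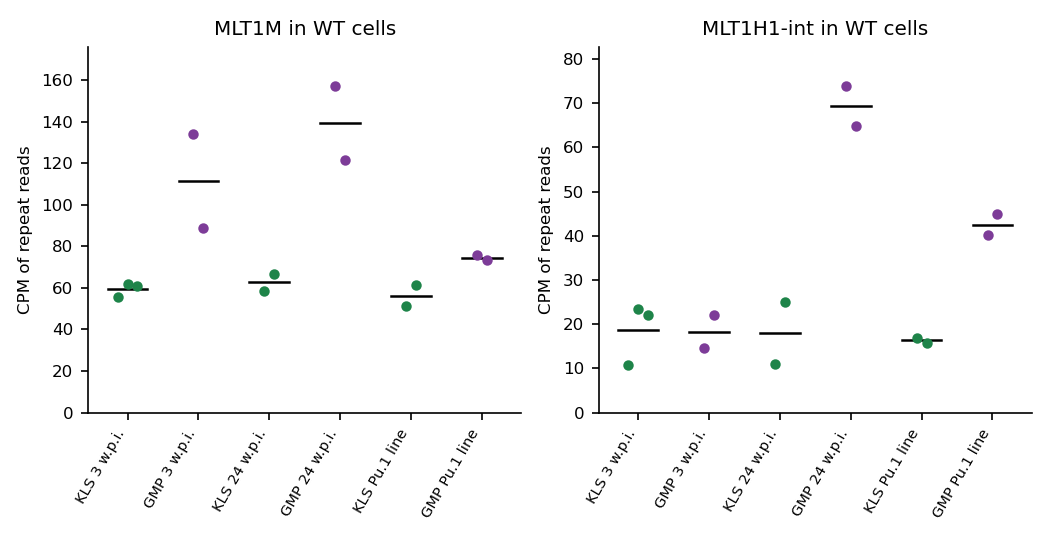
Levels of MLT1M and MLT1H1-int (CPM of repeat reads, linear axis from 0) in WT KLS cells and GMPs of 3 sets of animals, with a point per library and a line at the mean. MLT1M is above KLS in all GMP libraries of each set, and MLT1H1-int is so at 24 w.p.i. and in the Pu.1 line but not at 3 w.p.i.

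Of 204 members tested in all 3 sets, 70 had the same sign in each, and 0 had an unadjusted p under 0.05 in all 3. That level was passed by 5 members in 2 sets and by 30 in 1 set. In the gene tables at 24 w.p.i., normalised separately for each cell type, the 8 GMP markers summed to 33350 and 49220 in KLS cells and 344800 and 375600 in GMPs, and the 8 KLS markers to 96860 and 132500 against 17450 and 17530. The 7 B-lineage markers summed to 162000 and 274000 in these KLS libraries and to 3065 and 3101 in GMPs. Their part in the MLT1 values was not tested.

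Genes linked to MERVL were also examined. Of 28 genes of the early cleavage embryo and of MERVL-driven transcription, 19 to 24 had no read in any library of the untimed and 3 w.p.i. tables and 0 passed the filter on low values. In the Pu.1 line 10 were tested in KLS cells and 2 in GMPs, limma called 0 in each, and 3 and 2 had an unadjusted p under 0.05. Of 17 genes known to repress MERVL or related repeats, 16 were tested at 3 w.p.i. Daxx itself was called lower in Daxx-KO and in DKO cells over WT in both cell types. In the KLS libraries labelled DKO, Hdac1, a histone deacetylase, was called higher, while 17.6% of all genes were called. In Pu.1-KO GMPs, Trim28, a corepressor of KRAB zinc finger proteins, fell by 0.81 on the log2 scale (limma adjusted p = 0.0118), and Setdb1, an H3K9 methyltransferase, fell by 0.73 (adjusted p = 0.0252), against 17.6% of all genes called. The late neutrophil markers were higher in those Pu.1-KO GMPs (152300 and 155400 against 27630 and 34410), and their part in these gene values was not tested. The 3 MERVL elements were not called there. In Pu.1-KO KLS cells limma called 0 of 17 repressor genes, with 5 at an unadjusted p under 0.05 and 0.81% of all genes called. As labelled in the untimed gene tables, 4 of 16 were called in KLS cells (23.1% of all genes), and 9 of 16 in GMPs (33% of all genes), 7 of them lower.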

How the data were processed

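RNA-seq libraries of sorted KLS cells and GMPs were analysed. Per the labels, reads were processed with CASAVA 1.8.4, cutadapt 1.13, STAR 2.5.3 and DESeq2 1.16.1 on mm10, and tables of reads per repeat subfamily were deposited. Reads from near-identical copies cannot be assigned to a locus. The timed repeat tables hold raw counts as deposited. The untimed repeat tables and all gene tables hold signal in the form of counts that the authors divided by a size factor per library, and whole reads were recovered from them (100% of values within 0.01). Of 111 value columns, 73 could be mapped to the labels and 38 were not used. Groups of the GMP table at 3 w.p.i. rest on animal codes shared with KLS samples, and those of the Pu.1 line, of 24 w.p.i. and of 1 WT KLS column at 3 w.p.i. on the control and treatment endings of the column names.

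Counts were tested with edgeR 4.0.16 (quasi-likelihood, TMM, filterByExpr, library size from the repeat table) in R 4.3.3, and normalised counts with limma 3.58.1 (trend) on log2(value + 1) for a mean of 10 or more, in place of the count test first set for the untimed and gene tables. A fold change on log2(value + 1) understates the change of low members. DESeq2 1.42.0 served as an alternative. Tests were two-sided, and p-values were adjusted (Benjamini-Hochberg) over all subfamilies or genes. Libraries of WT KLS cells at 3 w.p.i. stand in both KLS tables with identical counts, and the tables were joined to compare DKO with Daxx-KO. The comparisons therefore share controls. CPM are relative to the repeat reads of a library after TMM scaling. Elements named were a fixed list of 23 rodent elements plus, per comparison, the 5 largest rises and falls among members called without overlap between groups. Members and lists were chosen with earlier results of these data known. In simulated tables with changes of 1 on the log2 scale, 81% were recovered for untimed KLS cells, 87.9% for KLS cells and 64.5% for GMPs at 3 w.p.i. (Daxx-KO over WT) and 81% for KLS cells of the Pu.1 line. Alternatives varied the pseudocount, filter, scaling, tool, block and libraries. Same-numbered libraries deviated together too little to be treated as pairs (r = 0.0224 in untimed KLS cells, -0.187 in untimed GMPs and 0.117 for Daxx-KO and WT KLS cells at 3 w.p.i.). The main tests did not pair KLS and GMP columns with the same animal code, and the animal entered as a block only in an alternative.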

Additional observations from a re-analysis of the deposited data

Results flagged for a closer look

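ORR1D1, an LTR of the rodent ORR1 group, moved in opposite directions between the libraries labelled DKO and the Daxx-KO libraries at 3 w.p.i. in both cell types. All DKO KLS libraries lay on one side of the Daxx-KO libraries and all DKO GMP libraries on the other. It was picked from the named members for this pattern. Of all subfamilies, 30.2% did not overlap in this comparison of KLS cells and 34.3% in that of GMPs. The log2 fold change was 0.04795 in KLS cells (edgeR adjusted p = 0.708) and -0.04837 in GMPs (adjusted p = 0.945). The difference between the cell types was not tested, and neither value passed the threshold on its own.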

How the results depend on the processing

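The 2-library groups limit all counts, and leaving out a library leaves a lone sample assumed to vary like the rest. Of 3487 values of named members recomputed, 2892 kept their direction and side of the threshold or moved by under 1 SE, 117 lost a call, 47 gained one, 7 changed sign and 424 moved by more without a call. In untimed KLS cells, against 11 members called, rescaling by TMM gave 5 and edgeR on recovered reads 6. In untimed GMPs, against 34, rescaling gave 1, edgeR 1 and DESeq2 2. The replicate block gave 20 there, 11 in untimed KLS cells, 1 for Daxx-KO over WT, 6 for DKO over WT and 0 for DKO over Daxx-KO KLS cells, and a crossed replicate block, chosen after seeing the data, gave 56 in untimed GMPs. The animal as a replicate block changed no call count. At 3 w.p.i., DESeq2 gave 3 for DKO over WT and 1 for DKO over Daxx-KO KLS cells, and 3 for WT GMPs over KLS cells, where the fit of only both groups also gave 3. DESeq2 gave 2 for WT GMPs over KLS cells of the Pu.1 line. The fit of only both groups gave 0 for KLS cells and 5 for GMPs of the Pu.1 line.

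Library sizes from the gene tables moved the median of all subfamilies by -0.836 (WT GMPs over KLS cells at 3 w.p.i.) to 1.27 (KLS cells of the Pu.1 line). They gave 40 members lower for DKO over WT KLS cells, where the median of all subfamilies moved to -0.259 and MERVL-int (-0.2447), MT2A (-0.2599), MT2B (-0.2539), MTD (-0.2614), MTEa (-0.2358) and ORR1D1 (-0.2508) turned with it. They gave 38 members higher in KLS cells of the Pu.1 line, where ORR1D-int became 0.1986.

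Leaving out each library gave 2 to 19 members in untimed KLS cells (2 without WT replicate 2, 19 without WT replicate 1), 6 to 75 in untimed GMPs (6 and 9 without Daxx-KO replicates 1 and 2, 75 without WT replicate 2), 0 to 7 at 24 w.p.i. (0 and 1 without KLS replicates a and b, 7 and 4 without GMP replicates a and b), 0 to 1 for WT cells at 3 w.p.i., 0 to 25 in KLS cells of the Pu.1 line and 0 to 1 for the difference of its effects. For repressor genes without the filter, 2 were called in untimed KLS cells and 1 for DKO over WT KLS cells, where the replicate block also gave 1. Leaving out each library gave 0 to 3 and 1 to 3 in these comparisons, 0 to 13 in KLS cells and 0 to 15 in GMPs of the Pu.1 line. The cause of these changes was not tested. Comparisons of knockouts at 24 w.p.i. and of LT-HSCs were not run because their columns could not be mapped to the labels by name.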
